A study of Mus musculus with 3 samples.

Results

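Gata3 and 9 genes linked to type 2 helper T cells were followed in effector memory CD4 T cells: the cytokine genes Il4, Il5, Il13, Il3, Csf2 and Il24 and the receptor genes Il1rl1, Ptgdr2 and Il17rb. The 10 genes were chosen by name, and each was found by its GENCODE M21 symbol in every gene table, among 55536 annotated genes. RNA was read by polyA-selected sequencing in CD4-positive, alpha-beta T cells of the effector memory type. They came from 1 male mouse of strain B6.SJL-Ptprca Pepcb/BoyJ, a C57BL/6 congenic line, aged 5 months, and the labels name no treatment. The sources used here do not give the gate used for sorting. The 3 libraries are labelled technical replicates of 1 biological replicate and form 1 group, so no conditions could be compared. Each SD is the spread between these libraries.

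Type 2 helper T (Th2) cells drive immunity to worms and allergic inflammation. The transcription factor GATA3 establishes the lineage: IL-4 acting through its receptor and STAT6 raises GATA3, and GATA3 opens the cytokine cluster that holds the genes of IL-4, IL-13 and IL-5. GATA3 is also needed, at a lower level, for the development and upkeep of CD4 T cells in general, so its transcript is not confined to Th2 cells. The receptors for IL-33 (ST2, encoded by Il1rl1), IL-25 (Il17rb) and prostaglandin D2 (CRTH2, encoded by Ptgdr2) mark memory Th2 cells, type 2 innate lymphoid cells and granulocytes.

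Gata3 stood at between 48.1 and 56.1 TPM (transcripts per 1000000 transcripts, a level corrected for length) in each library, whereas Il4, Csf2 and Il1rl1 lay between 1.94 and 6.07 TPM and the other 6 genes were at or near 0. Detection here means 1 TPM or more in every library. That level was reached by 4 of the 10 genes, against 21.1% of all annotated genes and 44.9% of protein-coding genes. Of the other 6, Il13 and Il3 had no count in any library, and Il5, Il24, Ptgdr2 and Il17rb had between 1 and 4 counts in all. The median over the 10 genes was 0.123 TPM, beside 0.02 over all annotated genes, 0.48 over protein-coding genes and 24.1 over the detected genes. Gata3 held 89.4% of the expected counts of the 10 genes together. In bulk RNA, fewer cells that express a gene and less RNA per cell cannot be told apart.

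**Figure D1:**
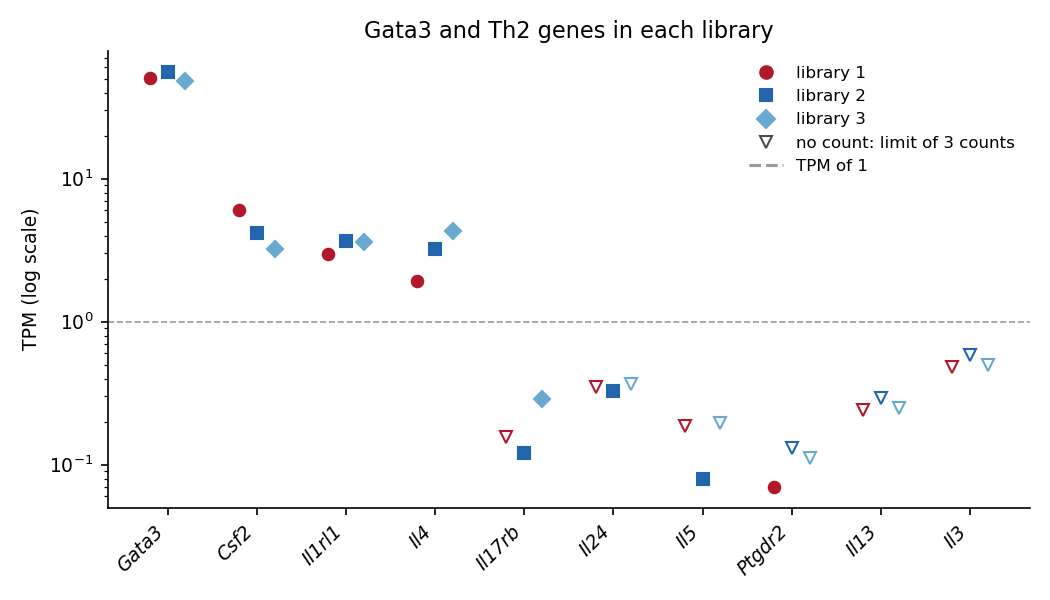
TPM of each of the 10 genes (log scale) in library 1 (circles), library 2 (squares) and library 3 (diamonds); open triangles give the TPM that 3 counts would make in a library with no count, and the dashed line is a TPM of 1. Gata3 lies between 48.1 and 56.1 in the 3 libraries, Csf2, Il1rl1 and Il4 lie between 1.94 and 6.07, and no point of the other 6 genes reaches 1.

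Expected counts on annotated genes amounted to 17474991, 15303615 and 16882311 for libraries 1, 2 and 3. Library 1 stood apart from the other two. Pearson's chi-square test of counts against library totals, with Benjamini-Hochberg adjustment over 13177 genes with at least 30 counts, called 75.8% of them as varying between the libraries. Of the genes tested, 40.1% varied and were lower in library 1 than in both others, and 32.9% varied and were higher there. Between libraries 2 and 3 alone the share was 16.7% of 12468 genes. This test weighs counting error only and compares these libraries, not conditions. Of the 10 genes, 4 had enough counts to be tested and 2 of them varied: Csf2 was higher and Il1rl1 lower in library 1. Between libraries 2 and 3 none of the 4 passed.

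The CD4 alpha-beta T cell part of the label was checked against markers fixed for it, and no markers were fixed for the effector memory part. All 9 CD4 alpha-beta T cell genes were detected, beside 21.1% of all annotated genes. Their summed TPM was 12976, 10285 and 10371 in libraries 1, 2 and 3. Trac (4687), Trbc2 (2363) and Trbc1 (1120) were the highest by mean TPM. All 9 varied between libraries, 4 lower and 4 higher in library 1, beside 75.8% (40.1% lower and 32.9% higher) of all genes tested. Trac was at 6922, 3647 and 3493 TPM in libraries 1, 2 and 3, whereas Cd4 was at 269, 541 and 523. Of 2 CD8 genes, Cd8b1 was detected at 5.65, 8.1 and 10.8 TPM, and Cd8a had 3 counts over all libraries. Of 2 genes of natural killer T cells, Klrb1c was detected at a mean of 8.68 TPM and Zbtb16 was not. Of 4 gamma-delta receptor genes and 5 B cell genes none was detected.

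Gata3 (ENSMUSG00000015619.10), on the minus strand of chromosome 2 (chr2:9857078-9890034 in GRCm38, the assembly also called mm10), measured 50.8 TPM in library 1, 56.1 in library 2 and 48.1 in library 3, from 1711, 1529 and 1565 expected counts. Its mean was 51.7 ± 4.08 TPM (SD, n = 3), rank 3568 of all annotated genes and 3321 of the protein-coding ones. The credibility intervals that the authors deposited beside the posterior estimates, whose level is not stated, ran from 43.8 to 51.1 TPM in library 1, from 47.5 to 59.2 in library 2 and from 41.6 to 51.1 in library 3. These 3 intervals overlap. In the chi-square test Gata3 did not pass (Benjamini-Hochberg adjusted p = 0.119 over the 3 libraries and 0.145 between libraries 2 and 3). That outcome rests on how libraries are scaled: with library sizes scaled by TMM, edgeR's trimmed mean method, the adjusted p of the same chi-square test with Benjamini-Hochberg adjustment was 0.000441.

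The size of the Gata3 difference was small on either scale. Library 1 less the mean of libraries 2 and 3 was -0.04 on the log2(TPM + 1) scale and 0.15 in log2 TMM-scaled CPM (counts per 1000000 in the library), so the sign turned. TMM scaling by itself moves every gene up in library 1 by 0.13 on the log2 scale. Over all detected genes the median difference on the log2(TPM + 1) scale was -0.06.

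Nearly all Gata3 RNA was assigned to the full-length coding transcript. Gata3-201, with a coding sequence of 1329 bases before its stop codon, made up 98.7%, 96.1% and 99.1% of the gene's transcripts in libraries 1, 2 and 3. The small remainder went to a different transcript in each library: Gata3-202 at 1.28% in library 1, Gata3-206 at 3.88% in library 2 and Gata3-204 at 0.88% in library 3. No minor Gata3 transcript was therefore seen in more than 1 library. Exons of the antisense gene Gm13256 and of 9230102O04Rik overlap the Gata3 locus. Gm13256 held 4.59 counts over the 3 libraries beside 4804 for Gata3, and since strand use in counting is not stated, that small share is uncertain.

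Among protein-coding genes, those whose log2(TPM + 1) lay nearest to that of Gata3 over the 3 libraries (Euclidean distance) were Fam50a at a distance of 0.074, Atg16l1, Ppp4r2, Pgrmc1 and Mtmr6 at 0.0933. All 5 had means between 50.3 and 53.4 TPM. They are listed for likeness of level over 3 libraries and nothing more.

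Set beside 3 factors of other helper lineages, Gata3 was the third of 4 by mean TPM. Tbx21, which encodes the Th1 factor T-bet, measured 238, 195 and 167 TPM in libraries 1, 2 and 3, and was 4.69-fold, 3.47-fold and 3.47-fold above Gata3. Bcl6, the factor of follicular helper cells, measured 79.0, 89.5 and 90.6 TPM and was 1.56-fold, 1.59-fold and 1.88-fold above Gata3. Both genes were above Gata3 in 3 of 3 libraries, with no overlap of the ranges.

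Foxp3, the regulatory T cell factor, lay far below Gata3, at 0.95, 2.70 and 1.23 TPM. On the log2(TPM + 1) scale Gata3 minus Tbx21 was -1.92 ± 0.25, Gata3 minus Bcl6 -0.73 ± 0.15 and Gata3 minus Foxp3 4.38 ± 0.40 (SD, n = 3). The order of the 4 factors by mean was thus Tbx21, Bcl6, Gata3 and Foxp3, and no neighbouring pair overlapped in range.

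**Figure D2:**
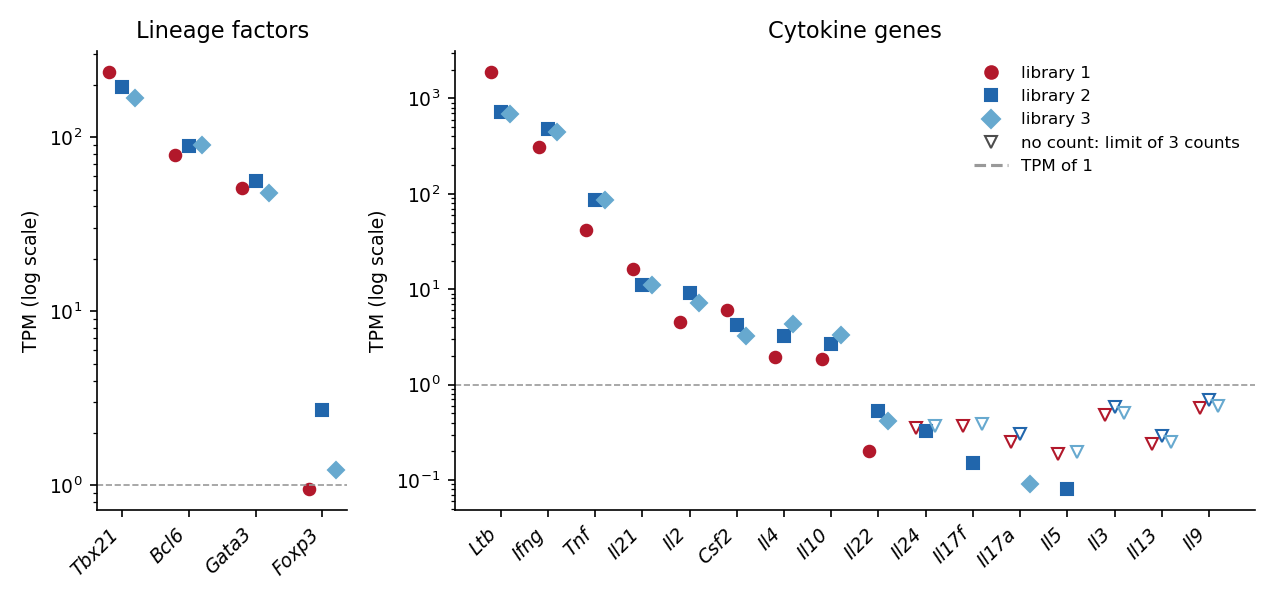
TPM (log scale) of 4 lineage factor genes (left) and 16 cytokine genes (right) in libraries 1 to 3, with open triangles for the TPM of 3 counts where a library had no count and a dashed line at a TPM of 1. Gata3 lies below Tbx21 and Bcl6 and above Foxp3 in every library, and Csf2 and Il4 stand sixth and seventh by mean among the cytokine genes.

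Genes known to restrain GATA3 or to act against it were mostly present. Of a list of 7, 6 were detected and Sox4 was not, beside 44.9% of protein-coding genes. Of the 7 tested, 6 varied between libraries, 5 lower and 1 higher in library 1, beside 75.8% (40.1% lower and 32.9% higher) of all genes tested. The highest were Tbx21, Bcl6 and Runx1 at 77.8 ± 23.5 TPM (SD, n = 3), a Runt family factor. The median of the list was 35.7 TPM. Of the 7 genes, Zfpm1 encodes FOG-1, a GATA cofactor that dampens GATA3, and it was at 8.07 TPM in library 1 against 52.4 and 44.1 in the others.

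Il4 (ENSMUSG00000000869.12), the cytokine that both defines and induces Th2 cells, lies on the minus strand at chr11:53602982-53618669. It was measured at 1.94 TPM in library 1, 3.22 in library 2 and 4.34 in library 3, from only 11, 15 and 23 expected counts. The exact 95% Poisson intervals, which cover counting error only, were 0.967 to 3.47, 1.80 to 5.32 and 2.75 to 6.51 TPM. These intervals overlap between all 3 libraries. The mean was 3.17 ± 1.2 TPM (SD, n = 3), 16.3-fold below that of Gata3. In the chi-square test Il4 did not pass (Benjamini-Hochberg adjusted p = 0.120). With library 2 left out the adjusted p of that test was 0.0418, so the call depended on library 2.

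The counts on Il4 were spread over transcripts that differ in where they begin. Il4-201 encodes 140 codons from a start at position 53618669, and Il4-203 and Il4-204 share a coding sequence of 45 codons and start at 53618352 and 53617338. Il4-201 made up 22.4%, 29.8% and 10.02% of the gene's transcripts in libraries 1, 2 and 3. Il4-203 made up 32.3%, 21.2% and 57.1%, and Il4-204 made up 45.3%, 31.2% and 32.8%. In counts, the 2 short forms took 36.9 of 49 over the libraries, or 75.3%, and Il4-201 took 9.58. With under 50 counts in the whole gene these shares are estimates from very few reads. All 3 coding forms end in the same bases, shown here with the stop codon in capitals, so reads from this end cannot tell them apart.
Il4-201, Il4-203 and Il4-204: agcatcatgcaaatggattactcgTAG

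RefSeq lists a start site for both ends of this range. The 300 bases around each are printed (250 before and 50 after the start, build GRCm38.p6, minus strand, 5′ to 3′). Il4-201 starts in the upstream window and Il4-204 in the downstream one, while Il4-203 starts between them, in neither window. Capitals mark the letters GATA, the core that GATA factors bind, read on either strand (GATA or TATC).
Il4, upstream start, chr11:53618616-53618915: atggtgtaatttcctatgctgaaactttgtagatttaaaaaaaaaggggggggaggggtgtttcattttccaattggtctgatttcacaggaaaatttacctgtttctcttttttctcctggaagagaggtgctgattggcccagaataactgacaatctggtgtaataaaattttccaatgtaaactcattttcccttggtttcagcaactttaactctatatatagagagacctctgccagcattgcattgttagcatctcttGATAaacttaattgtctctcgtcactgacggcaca
Il4, downstream start, chr11:53617289-53617588: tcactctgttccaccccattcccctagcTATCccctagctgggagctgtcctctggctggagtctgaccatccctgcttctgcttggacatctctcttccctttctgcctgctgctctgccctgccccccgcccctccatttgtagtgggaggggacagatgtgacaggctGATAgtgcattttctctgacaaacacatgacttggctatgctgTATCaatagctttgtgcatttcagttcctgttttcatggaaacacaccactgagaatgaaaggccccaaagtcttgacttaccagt
The upstream window holds 1 match and the downstream window 3. Of 32851 RefSeq windows of the same length, 57.9% hold at least 1 match and 12.6% hold at least 3. A match to the STAT6-type palindrome TTCNNNNGAA, which reads the same on both strands, is present in the upstream Il4 window and in that of Il3, and in 6.95% of all windows. Letter matches describe these windows and say nothing of binding.

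The other Th2 cytokine genes of the same cluster were not detected. Il13 (chr11:53631324-53634702, minus strand), an effector of mucus production and airway change, had 0 counts in each library. A limit of 3 counts puts it below 0.241, 0.292 and 0.251 TPM in libraries 1, 2 and 3. Il5 (chr11:53720794-53725106, plus strand), the growth factor of eosinophils, had 1 count in library 2, at 0.08 TPM, and 0 in the others, where the limits were 0.188 and 0.195 TPM. All of these limits lie below the lowest Il4 value of 1.94 TPM. The antisense gene Gm12214 overlaps Il5 and had no count.

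Csf2 and Il3 sit further along chromosome 11 and are shared by several helper lineages. Csf2 (ENSMUSG00000018916.5, chr11:54247271-54249667, minus strand) encodes GM-CSF, a growth and activation factor of myeloid cells. It measured 6.07 TPM in library 1, 4.20 in library 2 and 3.21 in library 3, from 49, 28 and 25 counts, with a mean of 4.49 ± 1.45 (SD, n = 3). Library 1 was 1.64-fold above the mean of the others in TPM and 1.69-fold in CPM. The difference passed the chi-square test (Benjamini-Hochberg adjusted p = 0.0270), and libraries 2 and 3 did not differ by it (adjusted p = 0.671 with Benjamini-Hochberg adjustment). The call was lost without library 3 (adjusted p = 0.0906 in the same Benjamini-Hochberg adjusted test), with the separate M4 count table (0.111), with every gene above 0 counts tested (0.0544) and with the statistic divided by the median overdispersion of all genes (1.00).

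Il3 (chr11:54265303-54267277, minus strand), a growth factor of basophils and mast cells, had 0 counts in each library. The limits of 3 counts were 0.481, 0.583 and 0.499 TPM, all below the lowest value of Csf2, 15.6 kb away.

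**Figure D3:**
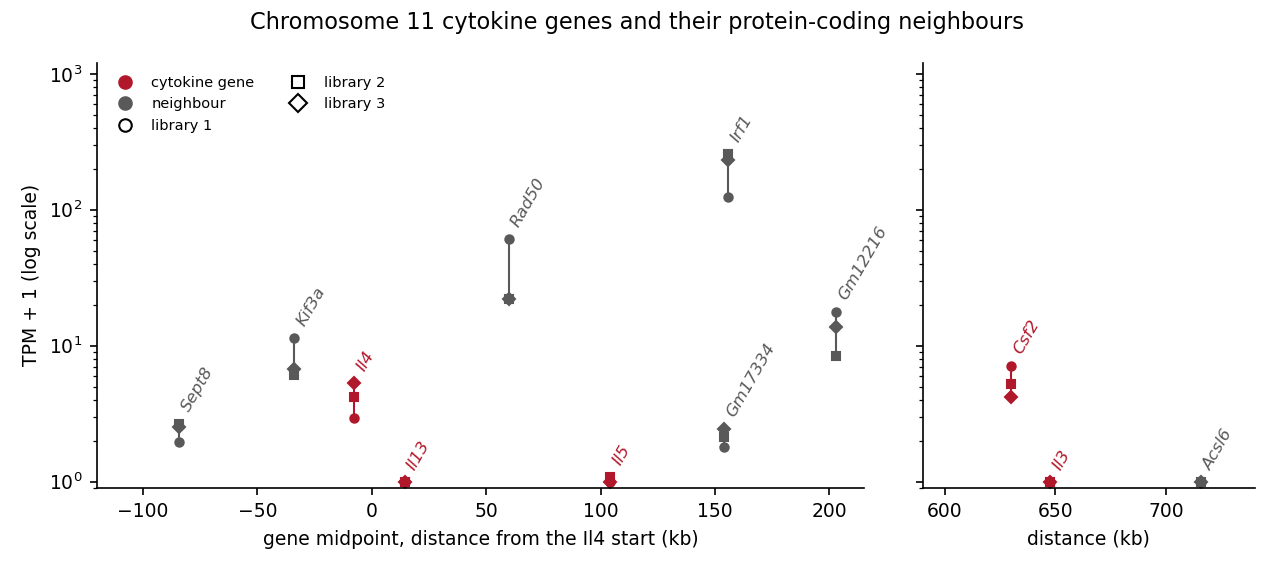
TPM + 1 (log scale) of the 5 cytokine genes (red) and of the 7 protein-coding neighbours within 100 kb (grey) on chromosome 11, placed by the distance of each gene's midpoint from the Il4 start (kb), with circles, squares and diamonds for libraries 1 to 3; the axis is broken between Il5 and Csf2. Il13, Il3 and Il5 lie at or next to the floor, while Irf1 and Rad50, between and beside them, are above 20 TPM in every library.

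The cytokine genes on chromosome 11 lay among both detected and undetected neighbours. The 5 cytokine genes on chromosome 11 span 664 kb, with 12.7 kb between Il4 and Il13 and 522 kb between Il5 and Csf2. Of the 7 protein-coding neighbours within 100 kb, 4 were detected, beside 44.9% of all protein-coding genes. Rad50, a DNA repair gene whose body separates Il13 from Il5 and holds the locus control region of the Th2 cluster, measured 60.2, 20.98 and 20.9 TPM in libraries 1, 2 and 3. Irf1, an interferon response factor, measured 123, 257 and 232 TPM. Kif3a, a kinesin gene beyond Il4, was at 10.5, 5.05 and 5.68 TPM, and Gm12216 had a mean of 12.2. Sept8 at 1.38 and Gm17334 at 1.11 had mean TPM above 1 but fell short of it in a library, and Acsl6, the neighbour of Il3, was at 0. Il4 thus lay below Rad50 and Irf1 in all 3 libraries.

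Il24, an IL-10 family cytokine gene on chromosome 1 (chr1:130882074-130887454, minus strand), had 1 count in library 2, at 0.33 TPM, and 0 in the others, with limits of 0.352 and 0.366 TPM. The authors' deposited posterior means were higher, at 0.52, 0.80 and 0.54 TPM in libraries 1, 2 and 3, with credibility intervals that reached 1.10, 1.63 and 1.14 TPM. That single count was assigned to Il24-203, a transcript annotated as a target of nonsense-mediated decay. Both coding transcripts had none.

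Among 16 cytokine genes of the helper lineages, 8 were detected, beside 44.9% of protein-coding genes. The highest were Ltb at 1104 TPM, Ifng at 412 and Tnf at 71.5, followed by Il21 at 12.9, Il2 at 6.94, Csf2 at 4.49, Il4 at 3.17 and Il10 at 2.60. Il22, at 0.383 TPM, fell short, as did Il17a and Il17f with 1 count each, and Il9 had no count. Ifng, the Th1 cytokine, measured 312, 477 and 447 TPM in libraries 1, 2 and 3. It was 161-fold, 148-fold and 103-fold above Il4, and 51.4-fold, 114-fold and 139-fold above Csf2.

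The order of the lower cytokine genes was not settled. Il4 minus Csf2 on the log2(TPM + 1) scale was -1.27, -0.30 and 0.34 in libraries 1, 2 and 3, so the sign differed between libraries. Il4 was above Il10 in each library, by 0.05, 0.20 and 0.32 on that scale, and every Il10 value lay within the Poisson interval of Il4 in its library. Il1rl1, Csf2 and Il4 overlapped in TPM, with ranges of 2.99 to 3.67, 3.21 to 6.07 and 1.94 to 4.34.

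Il1rl1 (ENSMUSG00000026069.15, chr1:40429570-40465415, plus strand) encodes ST2, the receptor by which Th2 and regulatory T cells sense the alarmin IL-33. It measured 2.99 TPM in library 1, 3.67 in library 2 and 3.6 in library 3, with a mean of 3.42 ± 0.37 (SD, n = 3), 15.1-fold below Gata3. Counts set library 1 further apart than TPM did. There were 93 counts in library 1 against 152 and 165, which is 5.32 CPM against 9.93 and 9.77, or 1.85-fold lower. The difference passed the chi-square test (Benjamini-Hochberg adjusted p = 1.56e-06), and libraries 2 and 3 did not pass (adjusted p = 0.949 with the same adjustment). The call was also lost with the chi-square statistic divided by the median overdispersion of all genes (Benjamini-Hochberg adjusted p = 0.994). The M4 count table showed the same direction, with 27 counts in library 1 against 58 and 51.

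A single short transcript separates the scales. Il1rl1-204, annotated as a protein-coding transcript of 375 bases with 65 codons, was given 4.23 counts in library 1 and none in the others. Because TPM divides by length, those few counts made 40.4% of the gene's transcripts there. Without Il1rl1-204 the TPM of Il1rl1 was 1.78, 3.67 and 3.6, a mean of 3.02 ± 1.07 (SD, n = 3). Library 1 was then 2.04-fold lower than the mean of the others.

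Il1rl1 makes a long membrane receptor that signals and a short soluble decoy that binds IL-33 without signalling. Il1rl1-201 and Il1rl1-202 share the long coding sequence of 567 codons, and Il1rl1-203 and Il1rl1-205 share the short one of 337 codons. The forms are identical over the first 328 codons, after which the short form has 9 codons of its own and the long form 239. The ends of both coding sequences are shown, with the stop codon in capitals, since the sequence that differs is what lets reads be assigned to a form.
Long form, Il1rl1-201 and Il1rl1-202: gcatgcttagacctgaaacactttTGA
Short form, Il1rl1-203 and Il1rl1-205: aaggagtgtccctcacacattgctTGA
The long form took 82.8%, 89.3% and 86.5% of the gene's counts in libraries 1, 2 and 3, or 86.7% of all 410. The short form took 12.7%, 10.7% and 13.5%, or 12.3% of all. Per length, the long form was at 1.36, 2.97 and 2.62 TPM and the short form at 0.42, 0.70 and 0.98 TPM. The long form was the higher in every library on both scales.

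**Figure D4:**
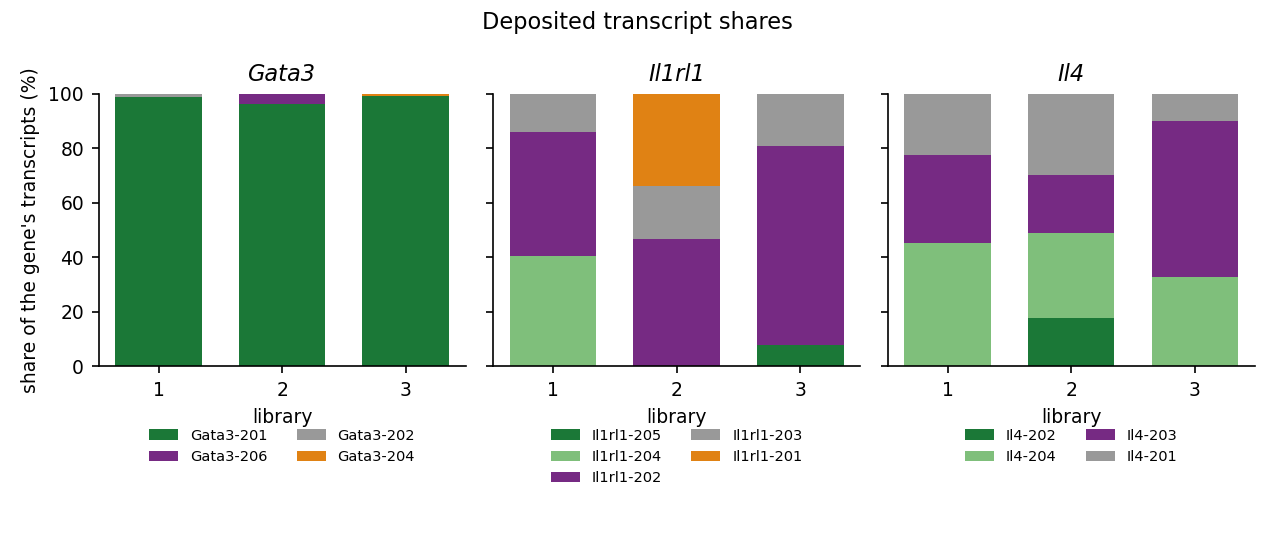
Stacked bars give each transcript's deposited share (%) of its gene in libraries 1 to 3 for Gata3, Il1rl1 and Il4; transcripts at 0 in all libraries are left out. Gata3-201 fills at least 96.1% of each bar, while the make-up of Il1rl1 and Il4 differs from library to library, with Il1rl1-204 present in library 1 at 40.4% and at 0 in the others.

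The long transcripts of Il1rl1 differ in their first exon. Il1rl1-202 starts at position 40439627 and made up 45.6%, 46.9% and 72.9% of the gene's transcripts, whereas Il1rl1-201 starts at 40440628 and was at 0, 34.0% and 0. Il1rl1 is known for a distal promoter used by mast cells and Th2 cells and a proximal one used by fibroblasts. The annotation's only transcript from the distal start, the short form Il1rl1-205 at 40429570, had 3.34 counts, all in library 3, or 0.815% of the gene's counts. No long transcript from the distal start is in the annotation used, so the choice between the starts is not fully resolved by these counts.

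The RefSeq windows around both starts are printed (250 bases before and 50 after, GRCm38.p6, plus strand, 5′ to 3′). GATA on either strand is again in capitals. Il1rl1-205 starts in the distal window and Il1rl1-202 in the proximal one, while Il1rl1-201, Il1rl1-203 and Il1rl1-204 start in neither. Counts were assigned to transcripts, not to these windows, and use of either start was not tested.
Il1rl1, distal start, chr1:40429320-40429619: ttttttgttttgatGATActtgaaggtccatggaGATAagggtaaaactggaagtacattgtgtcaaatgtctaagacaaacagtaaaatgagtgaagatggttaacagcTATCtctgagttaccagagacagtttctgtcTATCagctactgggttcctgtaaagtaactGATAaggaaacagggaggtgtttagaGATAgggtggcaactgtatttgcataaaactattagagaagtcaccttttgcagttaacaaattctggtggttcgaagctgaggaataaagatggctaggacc
Il1rl1, proximal start, chr1:40439379-40439678: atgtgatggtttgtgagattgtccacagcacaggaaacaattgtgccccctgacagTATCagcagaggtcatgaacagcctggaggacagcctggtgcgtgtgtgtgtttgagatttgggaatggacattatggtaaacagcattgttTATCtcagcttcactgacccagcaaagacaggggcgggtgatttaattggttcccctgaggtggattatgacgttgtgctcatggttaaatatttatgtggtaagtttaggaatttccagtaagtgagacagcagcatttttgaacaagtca
The distal window holds 6 GATA matches, none overlapping another, and the proximal window holds 2. At least 6 matches are present in 0.645% of all RefSeq windows of this length, and at least 2 in 28.7%. These shares were not matched for base composition, and the distal window holds 38.7% G and C. Over the 11 windows listed for 9 of the 10 genes, 10 hold at least 1 match, where 57.9% of all RefSeq windows do. Il24 has no window in the table.

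Il1rl1 lies in a row of IL-1 receptor family genes that were more abundant. Il18r1, which encodes the IL-18 receptor and begins 0.137 kb beyond the end of Il1rl1, measured 112, 146 and 140 TPM in libraries 1, 2 and 3. Il18rap, the gene of its partner chain, measured 85.5, 80.6 and 77.8 TPM, and Il1rl2 measured 20.2, 17.5 and 12.9. All 3 were above Il1rl1 in every library.

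The other receptors of the set were not detected. Ptgdr2 (chr19:10937160-10942511, plus strand), which encodes the prostaglandin D2 receptor CRTH2, had 2.02 expected counts in library 1, at 0.07 TPM. The others had none, with limits of 0.130 and 0.112 TPM. Its exons overlap those of Ccdc86 on the opposite strand, which measured 12.7, 14.4 and 11.5 TPM, so even these counts are uncertain.

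Il17rb (chr14:29996135-30008896, minus strand), which encodes the IL-25 receptor, had 0, 2 and 2 counts in libraries 1, 2 and 3, at 0, 0.12 and 0.29 TPM, with a limit of 0.157 TPM in library 1. None of these counts was assigned to either full coding transcript: those in library 2 went to Il17rb-203, a nonsense-mediated decay transcript, and those in library 3 to Il17rb-206, a retained intron. Exons of Actr8, at 45.03, 36.4 and 32.9 TPM on the opposite strand, overlap Il17rb, so these counts are uncertain.

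The partners and ligands of the receptors and cytokines were detected in 7 of 16 cases, near the 44.9% of all protein-coding genes. Their median was 0.388 TPM, beside 0.48 over protein-coding genes. Of the 7 tested, 6 varied between libraries, 4 lower and 2 higher in library 1, beside the same 75.8%, 40.1% and 32.9% of all genes tested. The highest were Il17ra at 130 TPM, the chain that pairs with IL-17RB, Traf3ip2 at 80.0, its adaptor, and Myd88 at 42.4, the adaptor of ST2. Il1rap, the co-receptor of ST2, was at 16.5, 12.3 and 10.4 TPM in libraries 1, 2 and 3, above Il1rl1 in each. Il33 and Il25, the ligands of ST2 and IL-17RB, were not detected. Csf2ra and Il3ra, alpha chains of the GM-CSF and IL-3 receptors, were at 13.8 and 4.03 TPM, but the beta chain genes Csf2rb and Csf2rb2 were not detected. Il5ra, Il20ra and Ptgds were also not detected, and Il22ra1 and Ptgdr had no count.

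Most genes listed for IL-4 and IL-13 signalling had higher transcript levels than Il4 itself, and whether the pathway was active was not tested. Of 11 genes of IL-4 and IL-13 signalling, 9 were detected, beside 44.9% of protein-coding genes, and the median was 118 TPM. All 9 varied between libraries, 6 lower and 3 higher in library 1, where 75.8% of all genes tested varied, 40.1% lower and 32.9% higher. The highest were Il2rg, the common gamma chain, at 1903 TPM, Jak1 at 538 and Il4ra, the IL-4 receptor alpha chain, at 321. Il4ra measured 195 TPM in library 1 and 416 and 350 in the others. Stat6 measured 192, 212 and 174 TPM in libraries 1, 2 and 3. Il13ra1, the second chain of the type II receptor, was not detected and the decoy gene Il13ra2 had no count.

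Regulators that act beside GATA3 in Th2 cells were detected in 14 of 16 cases, beside 44.9% of protein-coding genes, with a median of 82.5 TPM. All 14 varied between libraries, 11 lower and 3 higher in library 1, beside 75.8% (40.1% lower and 32.9% higher) of all genes tested. The highest were Junb, a partner at the Il4 promoter, at 9164 TPM, Ets1 at 1354 and Tcf7 at 1007. Bhlhe41 and Pparg, factors of Th2 cytokine and receptor expression, were not detected. Of 12 other products linked to Th2 cells, 6 were detected, beside the same 44.9% of protein-coding genes, and the median was 1.57 TPM. Among the 6 were Areg at 87.8 TPM, which encodes amphiregulin, the chemokine receptor gene Ccr8 at 23.6 and Il21 at 12.9. Of the 8 tested, 6 varied, 4 lower and 2 higher in library 1, again beside 75.8%, 40.1% and 32.9% of all genes tested. Il6, Ccr3, Ccr4 and Cysltr1 were not detected, and Il9 and Il31 had no count.

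Markers of other cells that use these genes were counted over whole lists. Of all protein-coding genes, 44.9% were detected. Of 8 genes of type 2 innate lymphoid cells, 6 were detected, with a summed TPM of 75.5 in library 1 and 154 and 153 in the others. Areg, also made by T cells, carried most of that sum, followed by Calca at 14.1 and Bmp7 at 13.04 TPM by mean. Of the 6 tested, 4 varied and were lower in library 1, as 40.1% of all genes tested were, and Calca and Klrg1 did not pass. Nmur1, a defining marker, was at 0, and Arg1 was not detected. Of 13 mast cell and basophil genes, 2 were detected (Hdc at 10.97 and Kit at 1.3 TPM), the summed TPM was 11.7 to 14.5, and Mcpt4, Mcpt8, Cpa3, Tpsb2, Cma1 and Fcer1a were at 0. None of 7 eosinophil genes was detected, with a summed TPM of 0.24 to 0.98 and Siglecf, Ear2 and Ear6 at 0. Of 5 regulatory T cell genes, 3 were detected, with a summed TPM of 125 in library 1 and 224 and 218 in the others. Foxp3, the lineage factor, was not detected, at 0.95, 2.70 and 1.23 TPM in libraries 1, 2 and 3, nor was Lrrc32, at a mean of 1.08. Ctla4, at 98.4, 192 and 186 TPM, carried most of that sum, and Il2ra and Ikzf2 were at means of 14.2 and 13.5. Of these 5 genes, 3 varied and were lower in library 1, beside the same 40.1% of all genes tested, and Ikzf2 and Lrrc32 did not pass. The part of these cells in the Il1rl1 difference was not tested.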

How the data were processed

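Each library has a gene and a transcript table made on mm10 and the GENCODE M21 annotation, per the notes deposited with the files. The deposited expected counts divide reads between the transcripts they fit, per the file headers. The deposited TPM and FPKM values are scaled within a library by the authors (FPKM was not used), and the deposited percent column holds transcript shares within a gene. The bounds of the credibility intervals of TPM, which the authors deposited, are treated as a score of unstated level. A second table on M4 annotation holds whole-number counts that the authors deposited without a header (5104745, 5047736 and 5278506 in libraries 1, 2 and 3). The sources used here name no aligner, quantifier or strand setting.

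Rows with a numeric ID (26248) and spike-ins held 0.304%, 0.298% and 0.226% of expected counts and were left out. Expected counts were rounded for Pearson's chi-square test over genes with at least 30 counts (Benjamini-Hochberg adjusted p below 0.05). That step was tested on simulated counts that held counting error only. The simulation therefore does not cover the overdispersion of these libraries (median 19.9). edgeR's quasi-likelihood test needs 2 groups and was not run. A pseudocount of 1 was added to TPM before log2. A count of 0 was read as below 3 counts, and limits and Poisson intervals cover counting error only, since the tables carry no molecular identifiers. Promoter windows came from RefSeq (GRCm38.p6), and coding ends from the GENCODE transcripts. Python 3.11.15, scipy 1.17.1, pandas 2.3.3 and edgeR 4.0.16 (TMM factors only) in R 4.3.3 were used.

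The 10 genes, the gene lists and the tests were chosen with earlier results of these data known. Named were the 10 genes, of each list the 3 highest by mean TPM and, by name or count, the undetected genes, the lineage factors and cytokines, the neighbours within 100 kb on chromosome 11 and the 5 genes nearest to Gata3. Cd4, Il4ra, Stat6, Il1rap, Csf2ra, Il3ra, Zfpm1, Klrg1, the overlapping genes and the neighbours of Il1rl1 were named after their values were seen. One lineage factor is not reported here.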

Additional observations from a re-analysis of the deposited data

How the results depend on the processing

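Of 142 alternatives over 30 results, 118 kept a call, a count within 1.5 times or a value within 1 SD, 14 moved a value further, 7 lost a call, 3 gained 1 and none reversed a called direction. The count of 4 detected genes was the same under every alternative run. The count of 2 varying genes of 4 tested became 1 of 8 (Il1rl1) when any gene with a count above 0 was tested. It was 1 with M4 counts, and 0 with the chi-square statistic divided by the median overdispersion over all genes, 19.9. Of all genes tested, 75.8% varied in the main setting and 35.8%, 68.4% and 21.6% in these alternatives. The count of varying genes was 0, 3 and 1 without libraries 1, 2 and 3, beside 16.7%, 74.6% and 73.5% of all genes tested. TMM-scaled library sizes and median-of-ratios size factors both gave 3, beside 75.7% and 75.8% of all genes tested. They added Gata3 (Benjamini-Hochberg adjusted p of the chi-square test 0.000441 and 1.09e-05). The Csf2 call was lost in 5 settings, with Benjamini-Hochberg adjusted p between 0.0544 and 1.00, and the Il1rl1 call in 2, without library 1 (0.949) and with overdispersion (0.994). The log2 difference of library 1 from the others was 0.15 for Gata3 and -0.75 for Il1rl1 in TMM-scaled CPM, which carry no length term. With a pseudocount of 0.1, Gata3 minus Foxp3 was 5.04 on the log2 scale, since that constant weighs most on genes near 0. The deposited posterior means were above the main TPM for Il5 (0.08), Il13 (0.0733), Il3 (0.15), Il17rb (0.433) and Il24 (0.62). The Il1rl1 mean without Il1rl1-204, 3.02, was added after seeing the data. No paired analysis was possible because the libraries form 1 group. The 6 undetected genes rest on 0 to 4 counts each and the transcript shares of Il4 on 49.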
